A study of Mus musculus with 22 samples.

Results

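The aquaporin family was followed through mouse primordial germ cells (PGCs), their cultures, pluripotent lines and stem cells with forced germ cell genes. Its members here are 9 listed genes, Aqp1, Aqp2, Aqp3, Aqp4, Aqp5, Aqp7, Aqp8, Aqp9 and Aqp11, taken through the probes that carry their names, 9 of 27351 genes and 14 of 41174 probes. The family was selected on 2 measured patterns in these arrays, the level of Aqp3 through the culture and that of Aqp8 in the embryonic germ cell (EGC) against the embryonic stem cell (ESC) line. Values of those 2 comparisons are therefore a description, with no test.

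Aquaporins are membrane channels that let water pass along osmotic gradients. Aqp1, Aqp2, Aqp4 and Aqp5 are classical water channels, Aqp3, Aqp7 and Aqp9 also pass glycerol, Aqp8 passes water, ammonia and hydrogen peroxide, and Aqp11 lies mainly in membranes inside the cell. In the mouse embryo, Aqp3 and Aqp8 are made in the trophectoderm, where water moves into the blastocyst cavity, and in adults Aqp1 and Aqp2 are known for their work in red blood cells, vessels and kidney tubules.

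RNA was measured on 22 one-colour arrays, 1 array per group, so no group has a replicate. The first set followed SSEA-1 positive cells from embryos at E11.5: uncultured PGCs, day 1 with bFGF, days 2, 3 and 6 with bFGF, 2i and A83-01, and day 10, whose label names no additives; 2i is the MEK inhibitor PD325901 at 1 µM with the GSK inhibitor CHIR99021 at 3 µM, and A83-01 at 250 nM blocks activin and TGF-beta receptors. An EGC line from E11.5 PGCs and an ESC line from blastocysts, both SSEA-1 positive, stood beside them. The second set held day 2 cultures with bFGF plus 2i, A83-01 and 4-hydroxytamoxifen (4OHT, 100 nM, added to activate AKT), plus 4OHT, plus 2i and A83-01, plus the MEK inhibitor, plus the GSK inhibitor, plus A83-01, or with bFGF alone. The labels name no transgene through which 4OHT would act. The third set held EBRTcH3 ESCs, sorted as GFP positive, with forced Prdm14, Vasa, Nanos2, Nanos3, Dnd (its source label reads End) or Blimp-1, a GFP control and the parental line, whose label names no sort. The GFP and Blimp-1 labels give an EF1a promoter and day 2. The culture medium held serum replacement and LIF, and the labels name no mouse strain.

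Each level is a log2 intensity after division by the 75th percentile of its own array. It therefore compares arrays for one probe and not one aquaporin with another. A probe is called detected where the scanner software marked it well above background. The 75th percentile ranged from 123.9 to 782.5 in intensity and the detected share of probes from 44.3 to 64.7 percent, lowest in both cases with 2i, A83-01 and 4OHT. The arrays lay on 10 slides. Pou5f1 and Nanog, markers of PGCs and pluripotent cells, were detected on all 22 arrays. Differences between single arrays are called at 2-fold and have no replicate check. Bulk arrays cannot tell fewer cells of a type from less RNA per cell.

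Upstream sequence is shown for the 3 members whose levels the results turn on, the 250 bases before the gene start in RefSeq's GRCm38.p6 table, which holds 8 of the 9 members. Capitals mark matches on either strand to the TATA box (TATAAA), the GC box (GGGCGG), the CCAAT box, the CACCC box and the octamer (ATGCAAAT).
Aqp3, chr4:41098184-41098433, minus strand: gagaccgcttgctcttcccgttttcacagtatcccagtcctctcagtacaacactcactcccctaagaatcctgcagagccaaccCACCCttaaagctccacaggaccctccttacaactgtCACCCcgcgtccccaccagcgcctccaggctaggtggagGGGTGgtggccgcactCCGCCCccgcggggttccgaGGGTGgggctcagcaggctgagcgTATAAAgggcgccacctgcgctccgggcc
Aqp5, chr15:99590778-99591027, plus strand: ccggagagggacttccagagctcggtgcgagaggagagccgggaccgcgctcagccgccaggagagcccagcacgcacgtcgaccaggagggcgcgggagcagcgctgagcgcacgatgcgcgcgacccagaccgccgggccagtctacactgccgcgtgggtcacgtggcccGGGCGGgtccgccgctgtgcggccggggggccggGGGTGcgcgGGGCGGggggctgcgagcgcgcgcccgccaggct
Aqp8, chr7:123462044-123462293, plus strand: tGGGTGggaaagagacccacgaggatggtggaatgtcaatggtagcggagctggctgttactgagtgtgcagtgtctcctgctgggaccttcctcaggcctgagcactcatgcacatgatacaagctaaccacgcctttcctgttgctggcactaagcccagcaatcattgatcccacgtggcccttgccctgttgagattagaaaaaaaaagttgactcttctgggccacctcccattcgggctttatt
The Aqp3 window held a TATA box at 29 bases before the start, 1 GC box and 4 CACCC boxes. The Aqp5 window held 2 GC boxes and 1 CACCC box, and its GC content was 78.4 percent, against 64.0 percent for Aqp3 and 52.4 percent for Aqp8. The Aqp8 window held 1 CACCC box and no match to the other motifs. Of 32817 such windows, 12.4 percent held the TATA box, 32.7 percent the GC box, 33.8 percent the CCAAT box, 52.0 percent the CACCC box and 1.6 percent the octamer. No 2 of these matches overlapped, and a match is a description of letters and not a site.

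Except for that of Aqp7, the files place the probes that gave the levels on build mm9, which is another build than that of the windows. They were at chr6:55298480-55298539 for Aqp1, chr4:41039962-41040021 for Aqp3, chr15:99425131-99425189 for Aqp5, chr7:130611436-130611495 for Aqp8 and chr7:104874989-104875048 for Aqp11. Aqp3 and Aqp11 are on the minus strand and the other 3 on the plus strand. The Aqp7 probe that gave the levels has no position, and the Aqp7 probe that has a position was detected on 0 arrays.

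Over all arrays, Aqp2, Aqp3, Aqp5 and Aqp11 were detected on all 22, Aqp4 and Aqp8 on 15 each, Aqp1 on 13, Aqp7 on 2 and Aqp9 on 0. Aqp4 rests on 1 of its 3 probes, the other 2 being detected on 0 arrays, and Aqp7 on 1 of its 2. Aqp8 ranged most widely among arrays that detected a member, between -5.10 with bFGF at day 2 and 3.24 in the EGC line. Aqp2, the water channel of the kidney collecting duct, varied least, between -2.55 at day 10 and -0.51 with 2i, A83-01 and 4OHT. Of 3 further aquaporin genes with probes that the list leaves out, Aqp6 and Aqp12 were detected on 0 arrays. Mip, the lens water channel, was detected on 9, the day 10 culture, the EGC and ESC lines and 6 EBRTcH3 arrays, with its highest level of -2.37 in the parental line.

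**Figure D1:**
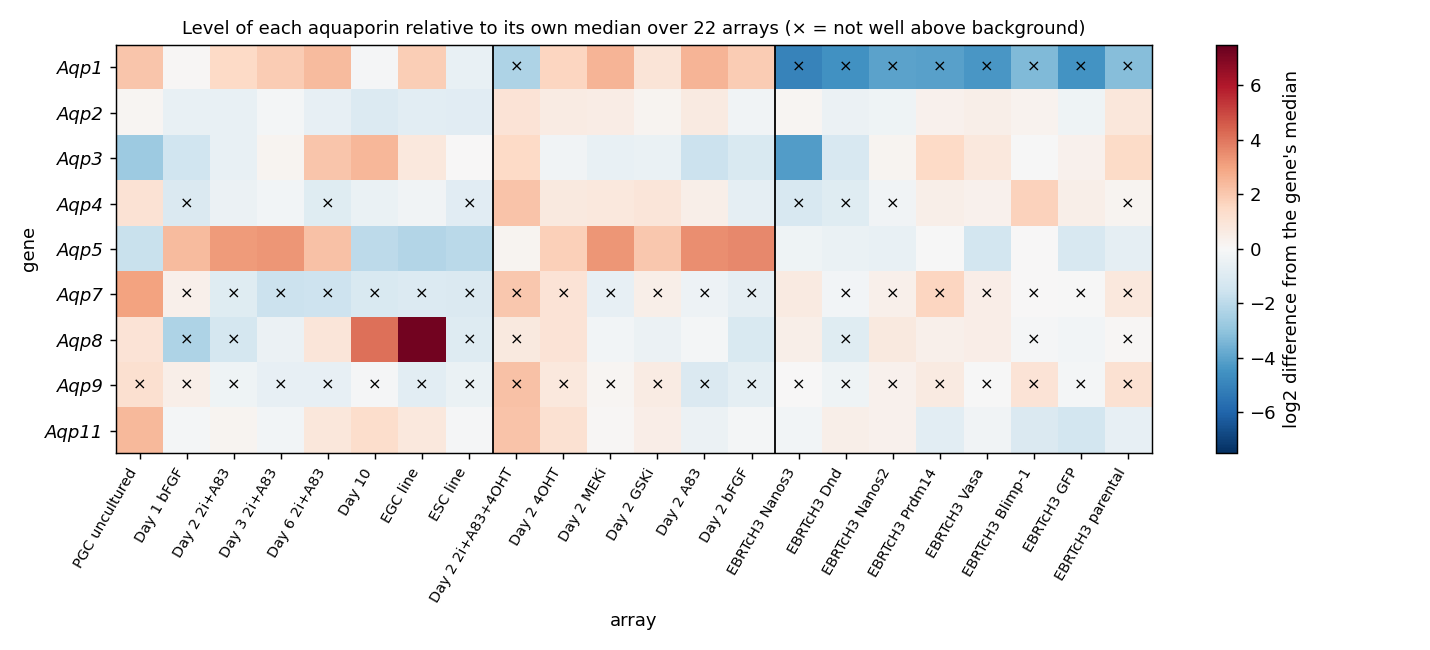
Colour gives the level of each aquaporin on each of the 22 arrays minus that gene's own median, in log2 units, with 1 array per column and crosses where the gene was not detected. Aqp8 stands out in the EGC line and day 10, Aqp5 in the cultures of days 1 to 6, and Aqp1 carries crosses on all 8 EBRTcH3 arrays and at day 2 with 2i plus A83-01 plus 4OHT.

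The time course asks how the family behaves as PGCs become EGCs. Aqp3, an aquaglyceroporin of epithelia, had levels of 0.64 in uncultured PGCs, 1.91 at day 1, 2.84 at day 2, 3.59 at day 3, 5.44 at day 6 and 5.88 at day 10, or intensities of 321.5, 2514, 4151, 8265, 34010 and 22040 in that order. Each array was above the one before it, with a slope of 1.62 per unit of log2(day + 1) (SE 0.15) and a residual SD of 0.29. Over all genes this slope passed a limma adjusted p under 0.05 for 10 of 18751, or 0.0533 percent, and for 0 with the gene names of the annotation on most arrays. The uncultured array lies on a slide with no other array of the series. Days 1, 2 and 10 share a slide, days 3 and 6 share another, and the EGC line lies on a slide of its own. Slide and time therefore cannot be told apart, except in steps within a slide. The largest step of Aqp3, 3.61-fold, lay between days 6 and 3. The EGC line, at 4.19, was 3.23-fold below day 10.

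Aqp8, a channel for water and hydrogen peroxide, had levels of -2.96 in uncultured PGCs, -6.31 at day 1, -5.28 at day 2, -4.43 at day 3, -3.1 at day 6 and 0.15 at day 10, and days 1 and 2 were not detected. Day 1 was at least 5.49-fold below uncultured PGCs, a log2 bound of -2.46. With normexp, another background correction, the difference was -1.96, so the bound was not kept. Day 10 was 9.46-fold above day 6 and the EGC line 8.52-fold above day 10. The slope was 1.03 (SE 0.60) with a residual SD of 2.08. The uncultured PGCs lay above days 1 to 3 and, at -2.96 against -3.1, slightly above day 6. In intensity, Aqp8 was at 26.56 in uncultured PGCs, 91.5 at day 6, 413 at day 10 and 4334 in the EGC line. The 75th percentile was 206.2 in uncultured PGCs and 782.5 at day 6, so the order of those arrays rests on the scaling.

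Aqp5, the water channel of salivary and lacrimal glands, was high at days 1 to 6 of the course. Its levels were -1.99 in uncultured PGCs, 2.08 at day 1, 2.86 at day 2, 3.01 at day 3, 1.86 at day 6 and -2.30 at day 10. Day 1 was 16.8-fold above uncultured PGCs and day 10 was 17.9-fold below day 6. The slope was -0.01 (SE 0.77) with a residual SD of 2.70. Fibroblast markers were high at days 1 to 10 too. Their median level was -2.31 in uncultured PGCs, 3.47 at day 1, 5.30 at day 2, 3.36 at day 3, 2.54 at day 6, 2.23 at day 10 and -1.26 in the EGC line. Dcn, a matrix proteoglycan of fibroblasts, had levels of 0.06 in uncultured PGCs, 5.21 at day 1, 7.12 at day 2, 5.96 at day 3, 5.09 at day 6, 3.76 at day 10 and -1.26 in the EGC line. At day 10, where Aqp5 was as low as in uncultured PGCs, the median fibroblast level was still above that of the uncultured array. All 5 fibroblast markers were detected at days 1, 6 and 10 and 4 of 5 on the uncultured PGC, day 2, day 3 and EGC arrays. Their part in the Aqp5 values was not tested.

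Aqp1, the water channel of red blood cells, endothelium and proximal tubule, had levels of -0.38 in uncultured PGCs, -2.40 at day 1, -0.96 at day 2, -0.57 at day 3, -0.10 at day 6 and -2.55 at day 10. Day 1 was 4.05-fold below uncultured PGCs and day 10 was 5.47-fold below day 6, so low arrays stood at both of those times. Aqp11 had levels of 2.11 in uncultured PGCs, -0.44 at day 1, -0.11 at day 2, -0.52 at day 3, 0.53 at day 6 and 1.00 at day 10, and day 1 was 5.86-fold below uncultured PGCs. Aqp7, an aquaglyceroporin of fat and proximal tubule, was detected in uncultured PGCs at -2.94 and on no later array of the course, and day 1 was at least 5.56-fold below. Aqp4, the main water channel of brain, was at -3.15 in uncultured PGCs and at least 4.40-fold lower at day 1. With normexp the day 1 differences were -1.83 for Aqp7 and -1.66 for Aqp4. Both fell short of their log2 bounds of -2.47 and -2.14.

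**Figure D2:**
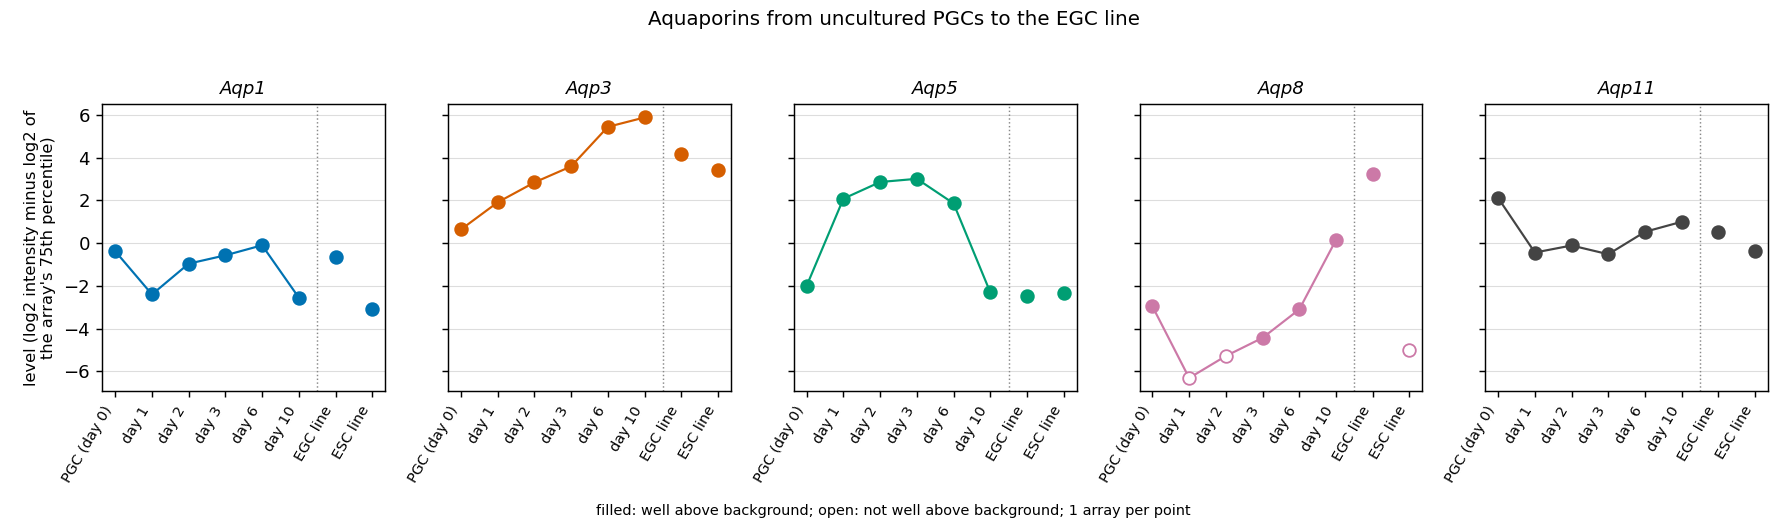
Levels of 5 aquaporins in log2 units, with lines through the 6 arrays of the time course and the EGC and ESC lines to the right of the dotted line. Each point is 1 array and open points were not detected. Aqp3 climbs at each time, Aqp5 is high from day 1 to day 6, and Aqp8 is high at day 10 and in the EGC line.

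Of the 6 steps compared, the first day of culture held the largest number of members at least 2-fold apart. Of 8 members detected on either array, 2 were at least 2-fold higher and 5 at least 2-fold lower at day 1 than in uncultured PGCs, with a median log2 difference of -2.08. Over all genes 52.1 percent of 16832 differed at least 2-fold, 15.8 percent higher and 36.3 percent lower, with a median of -0.59. The uncultured array, alone on its slide, had a 75th percentile of 206.2, against 668.2 at day 1. Culture, slide and brightness cannot be told apart in this step. Markers of other cells were detected on the uncultured array. Of 6 red blood cell markers, 1 was detected at day 1 and 5 in uncultured PGCs, and Hbb-y, an embryonic globin, was not detected at day 1 and was at 4.77 in uncultured PGCs. Of 6 kidney tubule markers, 4 were detected at day 1 and 6 in uncultured PGCs. Slc34a1, a proximal tubule phosphate transporter, was not detected at day 1 and was at 0.84 in uncultured PGCs, while Cdh16 was at 3.12 at day 1 and 2.90 in uncultured PGCs. The part of those cells in the Aqp1, Aqp7 and Aqp11 values was not tested.

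At day 2 with bFGF, 2i and A83-01, 1 of 6 members (Aqp1, 2.72-fold) was at least 2-fold above day 1, where 8.85 percent of all genes differed. With bFGF alone at day 2, Aqp1 and Aqp5 were 3.49-fold and 2.32-fold above day 1, 2 of 7 members, against 9.14 percent of all genes. At day 3, 0 of 7 differed from day 2, against 9.45 percent of all genes. At day 6, 3 of 7 were higher (Aqp3, Aqp8 and Aqp11) and Aqp5 was lower than at day 3, against 19.6 percent of all genes, 12.3 percent higher and 7.34 percent lower. With normexp, another background correction, the day 6 minus day 3 difference was 0.54 for Aqp8 and 0.95 for Aqp11, so neither reached 2-fold. At day 10, Aqp8 was higher and Aqp1 and Aqp5 lower than at day 6, 3 of 7 members, against 8.29 percent of all genes higher and 9.06 percent lower. The EGC line had Aqp8 and Aqp1 higher and Aqp3 lower than day 10, again 3 of 7, against 5.57 percent of all genes higher and 6.43 percent lower. Aqp3 was selected on this course and Aqp8 on the EGC and ESC lines. Counts that hold either of them, those of the first day included, are therefore a description.

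The EGC line was next set against the ESC line. Each lies on a slide with no other array of the series, so slide and line cannot be told apart. Aqp8 was at 3.24 in the EGC line and not detected in the ESC line, at least a 298-fold difference, with an intensity of 4334 in the EGC line and 24.13 in the ESC line. On the log2 scale the difference was 8.22, against 7.88 with quantile normalization and 6.27 with normexp, so the bound was not kept across settings. Aqp1 was at -0.64 in the EGC line and -3.06 in the ESC line, a 5.34-fold difference. Those were the 2 of 7 members at least 2-fold apart, and both were higher in the EGC line. Over all genes 19 percent of 17818 were 2-fold apart, 12 percent higher and 7 percent lower. The family was selected on Aqp8 in this comparison, so the count is a description and not a test against that share. Aqp3 was at 4.19 in the EGC line and 3.40 in the ESC line (1.74-fold), and Aqp11 at 0.50 in the EGC line and -0.39 in the ESC line (1.85-fold). Aqp5 was at -2.49 in the EGC line and -2.33 in the ESC line. Markers of primitive and visceral endoderm differed between the same arrays: 5 of 6 were at least 2-fold higher in the EGC line, with a median of 2.46. Gata6 was at -0.07 in the EGC line and -3.71 in the ESC line, Foxa2 at -0.83 in the EGC line and -3.45 in the ESC line, and Afp at -2.52 in the EGC line and not detected in the ESC line. The median level of the 6 endoderm markers was -0.68 in the EGC line and -3.58 in the ESC line. It was -0.30 in uncultured PGCs, where Aqp8 was at -2.96. At day 1 it was -1.58, where Aqp8 was not detected, and at day 10 -1.40, where Aqp8 was at 0.15. The part of these markers in the Aqp8 value was not tested. Aqp8 was not detected in the parental EBRTcH3 ESCs either, a dim array on which the lowest detected level of any probe was -3.48.

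Uncultured PGCs were then tested against 3 pluripotent lines (EGC, ESC and parental EBRTcH3) with limma, a linear model fitted over all genes, in which the lines give the spread. This test called 0 of 8 members at an adjusted p under 0.05 and 0 percent of 18604 genes, and 3 of 8 members passed an unadjusted 0.05, against 9.87 percent of genes. The count over all genes was 59 with normexp and 81 with no filter on dim probes. The uncultured array and the 3 lines each lie on a different slide, so slide and cell source cannot be told apart. The array of uncultured PGCs is also the first of the time course, so the values are not independent of it. Aqp3 was selected on that course, so its difference here is a description. Aqp3 was at 0.64 in uncultured PGCs, against 4.14 ± 0.73 in the lines (SD, n = 3), a log2 difference of -3.50. Aqp11 was at 2.11 in uncultured PGCs, against -0.27 ± 0.72 in the lines (SD, n = 3), a log2 difference of 2.38 (SE 0.86, limma adjusted p = 0.446). Both lay outside the range of the 3 lines. Aqp7 was at -2.94 in uncultured PGCs and detected in 0 of the 3 lines, so it entered the fit only through the uncultured array. Aqp1 was at -0.38 in uncultured PGCs, against -0.64 in the EGC line, -3.06 in the ESC line and no detection in the parental line, and its difference of 2.73 was 1.43 with normexp and 1.47 without the parental line.

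The day 2 cultures ask what each addition to bFGF does. In a limma fit with 1 additive term for each of the MEK inhibitor, the GSK inhibitor, A83-01 and 4OHT, 0 of 7 members passed an adjusted p under 0.05 for any term, and 0 percent of 18763 genes did. At an unadjusted 0.05 the 4OHT term held 5 of 7 members, but 47 percent of all genes too. The GSK term held 1 of 7 (Aqp5), against 4.73 percent of all genes, and the MEK and A83-01 terms 0 of 7, against 3.22 and 3.68 percent.

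Aqp5 was at -0.09 with 2i, A83-01 and 4OHT, 1.50 with 4OHT, 2.86 with 2i and A83-01, 2.98 with the MEK inhibitor, 1.72 with the GSK inhibitor, 3.17 with A83-01 and 3.30 with bFGF alone. The 3 lowest cultures were the 2 with 4OHT and the GSK inhibitor alone. The 4OHT term was -2.01 (SE 0.43, limma adjusted p = 0.0523) and the GSK term -1.20 (SE 0.45, limma adjusted p = 0.903). Dcn, the fibroblast marker named above, was also lowest on those arrays, at 0.19 with 2i, A83-01 and 4OHT, 1.46 with 4OHT, 7.12 with 2i and A83-01, 5.66 with the MEK inhibitor, 4.03 with the GSK inhibitor, 5.19 with A83-01 and 6.79 with bFGF alone. The part of such cells in the Aqp5 values was not tested.

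Aqp3 was at 4.90 with 2i, A83-01 and 4OHT, 3.1 with 4OHT, 2.84 with 2i and A83-01, 2.81 with the MEK inhibitor, 2.87 with the GSK inhibitor, 1.79 with A83-01 and 2.24 with bFGF alone. The 4OHT term was 1.37 (SE 0.35, limma adjusted p = 0.0591), and it was 0.25 with normexp and 0.87 with quantile normalization. The 2.06 by which the array with 2i, A83-01 and 4OHT stood above that with 2i and A83-01 became -0.15 under that correction. The MEK term was 0.71 (SE 0.37) and the GSK term 0.77 (SE 0.37), with limma adjusted p = 1 and 0.903. Aqp11 was at 1.83 with 2i, A83-01 and 4OHT and 0.84 with 4OHT, above the other 5 cultures, which lay between -0.76 and 0.18. Its 4OHT term was 1.55 (SE 0.28, limma adjusted p = 0.0508), against 0.83 with normexp.

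Aqp1 was not detected with 2i, A83-01 and 4OHT and was at least 3.22-fold lower there than with 2i and A83-01, a difference that became 0.67 under normexp. Normexp put Aqp1 on that array at -0.17, the level it also gave undetected Aqp9, so the 0.67 rests on an undetected value. Aqp1 was at -0.88 with 4OHT, -0.96 with 2i and A83-01, 0.06 with the MEK inhibitor, -1.50 with the GSK inhibitor, 0.08 with A83-01 and -0.60 with bFGF alone. Aqp8 was at -2.98 with 4OHT, against -5.10 with bFGF alone, and was not detected with 2i, A83-01 and 4OHT or with 2i and A83-01. The lowest detected level of any probe with 2i, A83-01 and 4OHT was -2.65, above that -2.98. Its non-detection there therefore does not show less Aqp8 than with 4OHT. The 2 arrays with 4OHT share a slide that holds no other array and are among the dim ones, with 75th percentiles of 123.9 and 252.3. The 4OHT term had a median of 0.59 over all genes, so addition, slide and brightness cannot be told apart. With 2i, A83-01 and 4OHT, 4 of 6 members were at least 2-fold higher and 2 lower than with 2i and A83-01, where 58.6 percent of all genes differed, 43.2 percent higher and 15.4 percent lower. With normexp the differences were 1.57 for Aqp2, 2.82 for Aqp4, -2.65 for Aqp5 and 0.52 for Aqp11. But normexp put Aqp2 at -0.03 and Aqp4 at -0.14 in the culture that also held 4OHT, near the -0.17 of undetected Aqp9. In the culture without 4OHT it put Aqp9 at -3.38. The normexp values of Aqp2 and Aqp4 therefore cannot show whether their differences held. Set against 4OHT alone, the culture with 2i and A83-01 added had 2 of 7 members higher and 2 lower, where 14.5 percent of all genes differed. Under normexp, however, the difference was -0.27 for Aqp3 and 0.45 for Aqp1. With 4OHT alone, 3 of 7 were higher and 1 lower than with bFGF alone, where 39.5 percent of all genes differed. The difference of Aqp4, 1 of the 3, was 0.84 with quantile normalization.

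Set singly beside bFGF alone, the other additions left most members within 2-fold. Aqp4 was at -3.43 with the MEK inhibitor, -3.27 with the GSK inhibitor, -3.76 with A83-01 and -4.89 with bFGF alone, at least 2-fold higher in each of the 3. Under normexp these differences were 0.65, 0.90 and 0.43 in the same order, so none of the 3 reached 2-fold. That was the single member of 7 for the MEK inhibitor and for A83-01, where 9.83 and 13 percent of all genes differed. For the GSK inhibitor Aqp5 was lower as well, 2 of 7, where 18.5 percent differed. The arrays with the MEK inhibitor, the GSK inhibitor and A83-01 share a slide that does not hold the array with bFGF alone, so slide and addition cannot be told apart in these pairs. They also share the array with bFGF alone, and the Aqp4 intensities lay between 23.71 and 53.04. With 2i and A83-01 together, 0 of 7 members differed from bFGF alone, where 3.86 percent of all genes did, and Aqp4 was at -4.67. Those arrays lie on the same slide.

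**Figure D3:**
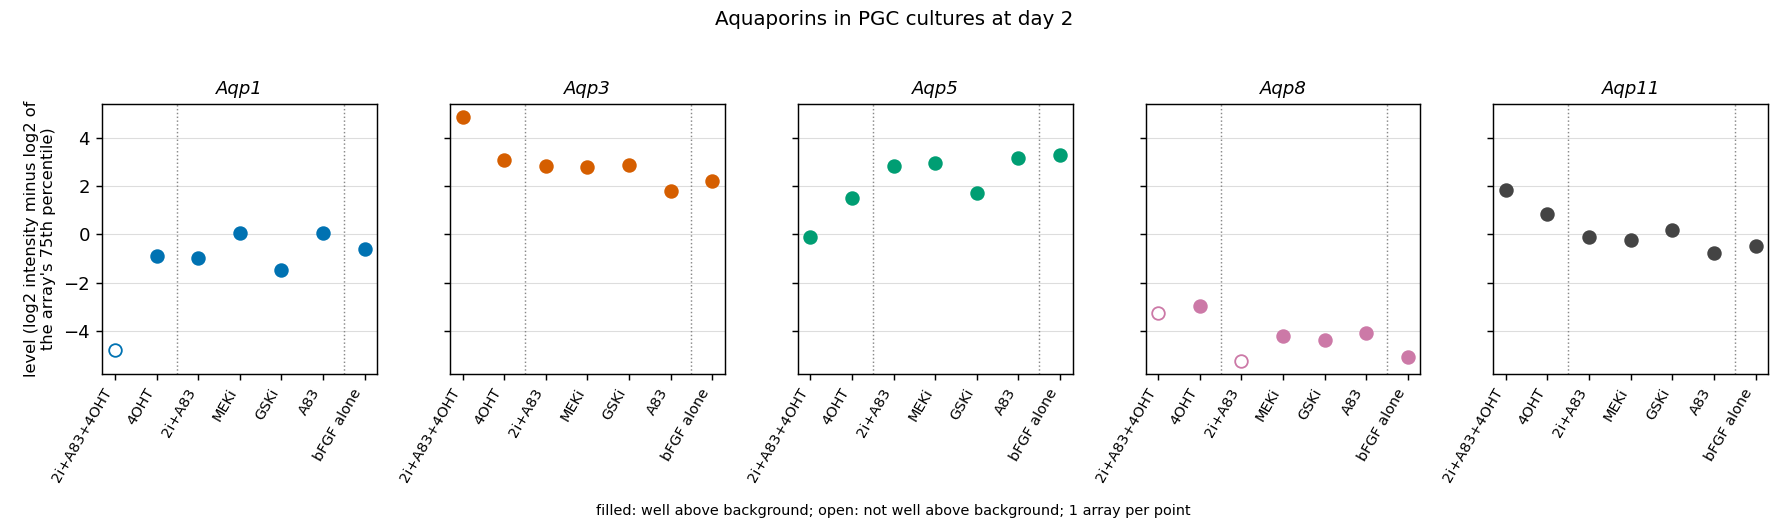
Levels of 5 aquaporins in the 7 day 2 cultures in log2 units, each point 1 array, with the 2 arrays with 4OHT left of the first dotted line and bFGF alone right of the second. Aqp5 is lowest and Aqp3 and Aqp11 highest with 2i, A83-01 and 4OHT, where Aqp1 and Aqp8 were not detected. The lowest detected level of any probe on that array was -2.65.

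The EBRTcH3 set asks what single germ cell genes do in ESCs. Each construct was tested with limma against the other arrays of its slide, and 0 of 7 members passed an adjusted p under 0.05 in any of the 6 fits. Over all genes the Dnd fit called 0.0105 percent of 18971 and the other 5 called 0 percent, counts that were 15 to 168 genes with quantile normalization and 0 to 155 with no slide block. At an unadjusted 0.05 the Nanos3, Nanos2 and Dnd fits held 1 of 7 members each, against 9.09, 2.91 and 2.22 percent of all genes. The Prdm14, Vasa and Blimp-1 fits held 0 of 7, against 6.21, 2.75 and 4.8 percent.

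Aqp3 carried the widest spread. It was at -0.80 with Nanos3, 2.18 with Dnd and 3.59 with Nanos2 on a slide that holds no control array, at 4.90 with Prdm14 and 4.20 with Vasa beside 4.84 in the parental line, and at 3.37 with Blimp-1 beside 3.69 with GFP. The Nanos3 array was the lowest of all 22 for Aqp3, at an intensity of 219.9, and lay 1.44 below the next lowest, the uncultured PGCs. Nanos3 minus the other 2 arrays of its slide gave -3.69 (SE 0.64, limma unadjusted p = 0.000821, adjusted p = 0.194). Against Nanos2 singly, Nanos3 had 1 of 6 members at least 2-fold away (Aqp3, 21-fold lower), where 22.3 percent of all genes were. Dnd had 2 of 5 lower than Nanos2 (Aqp3, 2.65-fold, and Aqp8), where 8.21 percent of all genes differed, and under normexp the Aqp8 difference was -0.51, within 2-fold. Nanos3 had Aqp3 lower and Aqp8 higher than Dnd, 2 of 6, where 17.4 percent of all genes differed, and under normexp the Aqp8 difference was -0.06. The Nanos2 term, 2.90 (SE 1.09, limma adjusted p = 1), has the Nanos3 array among its comparators and was 0.39 with no slide block.

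Trophectoderm markers also differed between Nanos3 and Nanos2, though their level did not follow that of Aqp3 over the whole set. With Nanos3, 4 of 5 were detected, against 1 of 5 with Nanos2, and their median was -2.01 with Nanos3 and -5.29 with Nanos2. The same number was detected with Prdm14, Blimp-1 and GFP, with medians of -3.64, -1.23 and -4.38, where Aqp3 was at 4.90, 3.37 and 3.69. Cdx2, a trophectoderm regulator, was at 0.61 with Nanos3 and not detected with Nanos2. Nanog was at 2.29 with Nanos3, against 5.52 with Nanos2, while Pou5f1 was at 5.49 with Nanos3 and 5.84 with Nanos2. Their part in the Aqp3 value was not tested.

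Aqp1 was not detected on any of the 8 EBRTcH3 arrays. Aqp8 was detected on 5 of them, between -4.19 with GFP and -3.27 with Nanos2, and not with Blimp-1, Dnd or in the parental line. The undetected levels of -4.08 with Blimp-1 and -3.89 in the parental line lay above the detected one with GFP. The lowest detected level of any probe was -3.68 with Blimp-1, -3.48 in the parental line and -4.81 with GFP. Detection therefore does not separate these 3 arrays in Aqp8. The Dnd array was at least 3.06-fold below Nanos2 for Aqp8 and its term was -1.47 (SE 0.43, limma unadjusted p = 0.011, adjusted p = 1), against -0.51 for the pair and -0.22 for the term under normexp. Aqp5 was at -1.67 to -0.29 and Aqp11 at -1.68 to 0.12 over the 8 arrays. Prdm14 and Vasa each had 0 of 6 members at least 2-fold from the parental line, where 29.1 and 18.4 percent of all genes were. Blimp-1 had Aqp4 and Aqp5 above GFP, 2 of 6, where 15.9 percent of all genes differed, and under normexp the Aqp4 difference was 0.94. Aqp7 was detected with Nanos3 alone among the constructs, at -5.28.

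**Figure D4:**
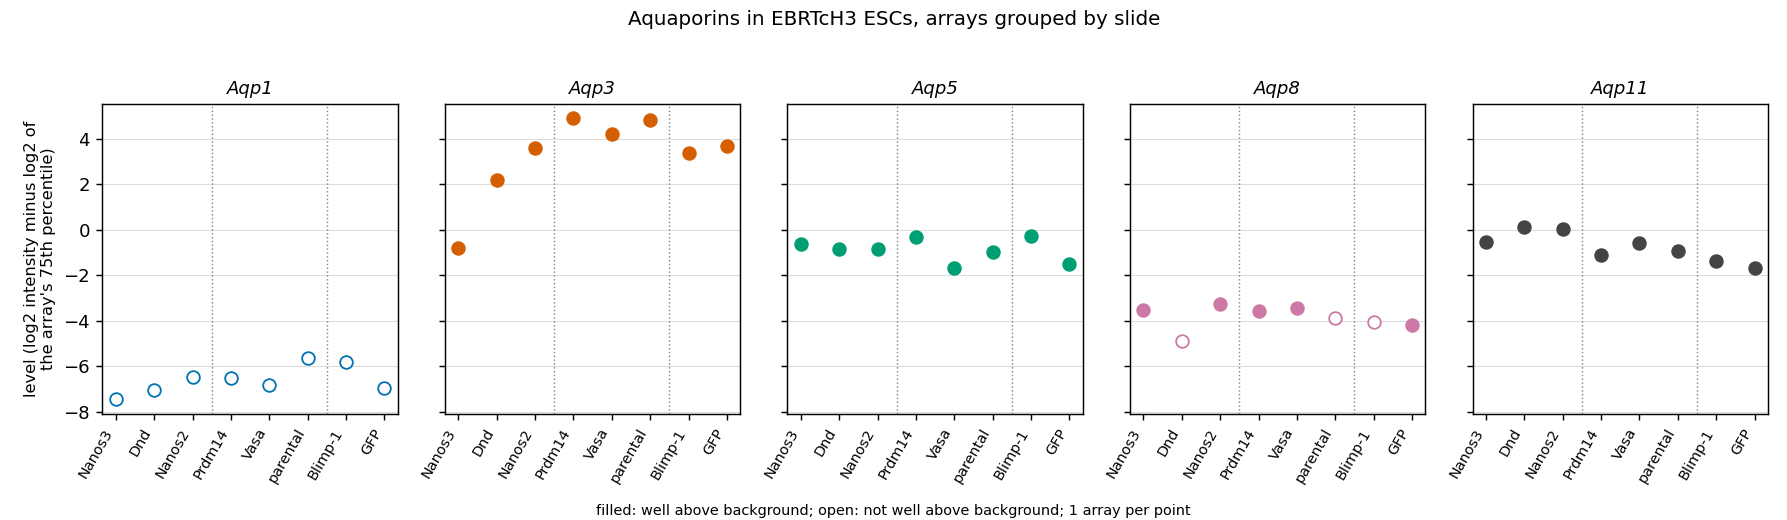
Levels of 5 aquaporins on the 8 EBRTcH3 arrays in log2 units, 1 array per point, with dotted lines between the 3 slides. Aqp3 with Nanos3 sits at -0.80, below the other 7 arrays at 2.18 to 4.90, and Aqp1 is open on all 8.

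Genes that work beside aquaporins were counted on lists of glycerol use, osmotic response, swelling-gated anion channels and water-linked transporters. In 12 limma fits, which gave 320 tests of these genes, 0 passed an adjusted p under 0.05 and 26 an unadjusted 0.05, of which 12 were among the 26 tests of 4OHT. Over all genes 9.04 percent of tests passed an unadjusted 0.05, and 47 percent for 4OHT, against 8.12 percent for the lists, so the lists were near the background. Of 9 glycerol genes, 2 were at least 2-fold higher and 2 lower in the EGC than in the ESC line, where 19 percent of all genes differed. Gk, glycerol kinase, had the largest difference on that list, at -0.84 in the EGC line and -3.74 in the ESC line. At day 1 against uncultured PGCs, 3 of 8 glycerol genes were higher and 2 lower, where 52.1 percent of all genes differed: Plin2, a lipid droplet coat protein, was at 6.23 at day 1 and 3.60 in uncultured PGCs, and Gpd1, a glycerol phosphate dehydrogenase, at -1.87 at day 1 and 1.58 in uncultured PGCs. Of 8 osmotic genes, 3 were higher and 1 lower, and Nfat5, the tonicity-response factor, was at -0.05 at day 1 and -2.32 in uncultured PGCs. Of 5 LRRC8 anion channel subunits, 3 were higher and 1 lower at day 1, and 0 of 5 differed between the EGC and ESC lines. Of 6 water-linked transporters, 1 was higher and 4 lower at day 1. These day 1 counts all stand beside that share of 52.1 percent. Slc14a1, a urea transporter, was at 1.59 with A83-01 at day 2, against -0.92 with bFGF alone.

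The genes whose levels ran most like Aqp3 over the 22 arrays, of 14435 detected on at least 5 arrays, were Slc1a5 (Pearson r = 0.802), Phf11a (0.791), Itpka (0.791), Mylpf (0.790) and Sarm1 (0.782). Those most like Aqp8 were Neu3 (0.882), Klb (0.868), Aifm1 (0.866), Zfp968-ps (0.852) and Mcts2 (0.851), and each of these 5 was highest in the EGC line. Aqp8 itself was highest there, 3.09 above the next array, so their shared peak follows largely from the ranking. The Spearman coefficient of Neu3 with Aqp8 was 0.587. Between members, Aqp1 and Aqp5 had r = 0.56, Aqp5 and Aqp8 -0.51, and Aqp3 and Aqp8 0.36. These coefficients describe 22 arrays that share slides and cell sources, and arrays far from the rest weigh heavily in them. They also use levels that were not detected, and Aqp1 was detected on 13 of the arrays and Aqp8 on 15.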

How the data were processed

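RNA of 22 samples was labelled with Cy3 and hybridised to Agilent mouse arrays, per the labels' protocols. The authors scanned them and processed them with Agilent Feature Extraction 10.7.3.1, per the submitters' processing notes and the file headers, with probes placed on mm9. The authors' deposited spot values are processed intensities from which the background was subtracted, with no scaling between arrays, and the deposited value table holds the same intensities (median ratio 1 on each array). Outlier spots were left out and log2 levels were computed from the deposited values as described above. Repeat spots were averaged. For a gene with several probes, the brightest one by mean level was used.

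The annotation differs between arrays at 5143 of 45018 spots: 4 arrays carry a later version and 18 an earlier one. Genes were named from the later version. That choice was made after a first fit with the earlier version had been seen, because the later one names the Nanog probe, and the other naming is kept as an alternative in the closing section. The 14 aquaporin probes are the same in both. Of 41174 probes, 27591 were named by RefSeq accession, 5491 by symbol and 635 by synonym, and 7457 kept the file's name.

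Where 1 side was not detected, it was set to the higher of its own level and the lowest detected level on its array, giving "at least N-fold". Models were fitted with limma 3.58.1 (lmFit, eBayes, two-sided, Benjamini-Hochberg) in R 4.3.3, over genes detected on at least 1 array of the fit, and the scripts were tested on simulated data (200 genes with known changes). Each group has 1 array, whose spread is taken to equal that of the others fitted with it, so p-values measure only the spread between these arrays, and the number of arrays limits precision. All 9 members were named, with up to 3 genes per list by largest difference and the 5 genes most like Aqp3 and Aqp8; Dcn, Cdx2, Cdh16, Pou5f1, Nanog and Slc34a1 were named from the marker lists as well. Members and lists were chosen with earlier results of these data known. Sequences are from RefSeq (GRCm38.p6), read with Python 3.11.15, and figures were drawn with matplotlib 3.10.9.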

Additional observations from a re-analysis of the deposited data

How the results depend on the processing

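Alternatives were normexp background correction (offset 50), the authors' value table, quantile normalization, no filter on dim probes, days as given, slide in place of 4OHT, no slide block, leaving out the parental EBRTcH3 array and, added after seeing the data, gene names from the annotation on the other 18 arrays. The count of members called by the day 2 additions was 0, against 7 with no filter on dim probes and 3 with normexp, all in the 4OHT term. Over all genes that term called 15344 of 27322 with no filter and 8479 of 18763 with normexp. Aqp7 and Aqp9, called with no filter, were detected on no day 2 array. Of the members called with normexp, Aqp4 and Aqp8 had normexp levels of -0.14 and -0.15 where 4OHT was combined with 2i and A83-01. Undetected Aqp9 was at -0.17 there. The cause was not tested. The counts of members for the other comparisons stayed within 1.5 times of their value. Under normexp the sign turned for Aqp1 with 2i, A83-01 and 4OHT minus 2i and A83-01 (0.67), and minus 4OHT (0.45), for its 4OHT term (0.08), for Aqp3 with 2i, A83-01 and 4OHT minus 2i and A83-01 (-0.15), and minus 4OHT (-0.27), and for Aqp8 with Nanos3 minus Dnd (-0.06). The EGC minus ESC difference of Aqp8 was 8.22, against 7.88 with quantile normalization and 6.27 with normexp. The 2-fold differences lost under normexp for Aqp4, Aqp8 and Aqp11 stand beside those results.

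Over all genes, the time trend called 10 of 18751 genes, with the smallest adjusted p rounding to 0.05, and 0 of 19155 with the other gene names, whose smallest adjusted p was 0.0509. It called 0 with normexp, the authors' table and days as given, and 15 with quantile normalization, so whether any gene passes rests on these choices. The 4OHT term called 0 genes, against 8479 with normexp and 15344 with no filter. The 6 construct fits called 0 to 2 genes each, against 0 to 4 with normexp, 15 to 168 with quantile normalization and 0 to 155 with no slide block. Uncultured PGCs minus lines called 0, against 59 with normexp and 81 with no filter, and the MEK, GSK and A83-01 terms 0, against 21, 9 and 9 with normexp. Low signal limits Aqp4, Aqp7, Aqp8 and Aqp9. No paired analysis was possible because each group has 1 array.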
